A study of Mus musculus with 16 samples.

Results

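The 8 genes described here encode the CREB family of transcription factors (Creb1, Atf1 and Crem) and the coactivators that these factors recruit (Crtc1, Crtc2, Crtc3, Crebbp and Ep300). They were chosen by name for this role, with earlier results of these data known, and they are 8 of the 21938 protein-coding genes annotated on the mouse chromosomes. The samples were mouse tumours of a clear cell sarcoma model, all of genotype EWSR1::ATF1. In this model a V5-tagged human EWSR1::ATF1 cDNA is expressed from the Rosa26 promoter after TATCre, a cell-entering Cre recombinase, is injected into the hindlimb of 4-week-old mice of mixed 129/SvJ and C57Bl/6 background, so any cell type at the injection site could be the one recombined. The labels give no age at which the tumours were taken. Chromatin immunoprecipitation sequencing (ChIP-seq) comprised 4 samples each for V5 (the tag of the fusion), Pol2 (phosphorylated RNA polymerase II), H3K27ac (an acetylated histone mark of active promoters and enhancers) and input chromatin. All groups carried the fusion, and no tissue without it was analysed here, so the values describe where peaks lay in these tumours and not a change caused by the fusion.

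CREB1, ATF1 and CREM are closely related bZIP proteins that dimerise on the cAMP response element, the palindrome TGACGTCA, or on the 5-letter core TGACG within it. Phosphorylation by protein kinase A and other kinases lets them recruit the acetyltransferases CBP (encoded by Crebbp) and p300 (Ep300), which acetylate histone H3 at lysine 27 among other targets. The CRTC proteins bind the bZIP domain itself, are held in the cytoplasm by salt-inducible kinases (SIKs) and enter the nucleus when calcineurin removes that phosphorylation. Crem also has an internal promoter from which the short repressor ICER is made in response to cAMP. EWSR1::ATF1 keeps the bZIP domain of ATF1 and can therefore bind the element that CREB1, ATF1 and CREM use. The V5 antibody is directed at the tag of the fusion, and the samples include no V5 precipitation from tissue without the tag. V5 peaks are read here as sites of the fusion without that control. The binding of the CREB1, ATF1 and CREM proteins themselves was not measured.

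Sequences from the V5 peaks of Creb1, Atf1 and Crebbp are shown first, from GRCm38 (the assembly of mm10), each on the strand of the gene with 10 bases on either side. Capitals mark the TGACG core or its complement CGTCA, and the full TGACGTCA where the core and its complement overlap. The first 5 lie in V5 peaks at the promoters of Creb1 and Atf1, the next 2 in the V5 peak at the Crebbp promoter, and the next 2 are the full TGACGTCA elements in V5 peaks beside Creb1 and Crebbp. The last 5 are the cores at the promoters of 3 genes without a V5 peak, and are shown because the same 5 letters occur there too. Crem, which has the strongest V5 peaks, is described further on by motif counts and positions only.
Creb1 promoter, chr1:64532439-64532463, plus strand: cctcgcggcgCGTCAaagttcccgg
Creb1 promoter, chr1:64532900-64532924, plus strand: tgttggtgagTGACGcggcggaggt
Creb1 promoter, chr1:64532921-64532945, plus strand: aggtgtagttTGACGcggtgtgtta
Creb1 promoter, chr1:64532988-64533012, plus strand: acgaaagcagTGACGgaggagcttg
Atf1 promoter, chr15:100227759-100227783, plus strand: gaccacgcggTGACGcagcacgccg
Crebbp promoter, 2 cores, chr16:4214057-4214098, minus strand: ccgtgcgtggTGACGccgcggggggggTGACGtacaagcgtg
Crebbp promoter, chr16:4214252-4214276, minus strand: ttactgacagCGTCAgaacaaaagt
Downstream of Creb1, chr1:64615861-64615888, plus strand: actgaaaccaTGACGTCAgtttcggact
Downstream of Crebbp, chr16:4077840-4077867, minus strand: tcgcgcgccaTGACGTCActgagccgcc
Crtc1 promoter, no V5 peak, chr8:70439435-70439459, minus strand: gacctgagccTGACGcgggccgcgc
Crtc2 promoter, no V5 peak, chr3:90254403-90254427, plus strand: aagatggcgaCGTCAggggcgaacg
Crtc2 promoter, no V5 peak, chr3:90254489-90254513, plus strand: gcagaagcagCGTCAggccgaggag
Ep300 promoter, no V5 peak, chr15:81585120-81585144, plus strand: agccaccgagTGACGccgggggagt
Ep300 promoter, no V5 peak, chr15:81585856-81585880, plus strand: gtgggctcggCGTCAgcgcgggctt

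Each antibody is represented by 1 list of peaks, with a start, an end and a whole-number score given by the authors for every peak. The V5 list held 10665 peaks with scores from 21 to 23478 (median 230), the Pol2 list 20375 peaks with scores from 23 to 23501 (median 246) and the H3K27ac list 27552 peaks with scores from 21 to 12513 (median 212). The V5 list is shorter than the largest set of sites that the study describes, and every V5 rank, share and absence below refers to this list. There are no values per sample, so no value below has an error between tumours, no test was possible, and the depth of the samples is unknown from the lists. The study uses it both as a measure of significance and as one of enrichment without giving its scale, and scores are therefore compared only within a list, as ranks in which 1 is the highest score and equal scores share a rank. A promoter peak is one that reaches within 3 kb of any transcription start site (TSS) of the gene. Because the tumours were taken whole, the peaks cannot be assigned to tumour cells or to other cells in them.

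V5 peaks, read as sites of the fusion, lay at the promoters of all 3 transcription factor genes and of 1 of the 5 coactivator genes. V5 promoter peaks were present at 4 of the 8 genes, Crem, Creb1, Atf1 and Crebbp, whereas 16.6% of all coding genes had one. The same 4 genes had a V5 peak in the gene body (20% of coding genes) and within 50 kb of a TSS (41.3%). Pol2 peaks were present at all 8 promoters (53.5% of coding genes), in all 8 bodies (53.7%) and within 50 kb of all 8 (69.9%). H3K27ac peaks were also present at all 8 promoters (58.6%), in all 8 bodies (59.1%) and within 50 kb of all 8 (75.1%). Both marks occurred together at the promoters of 52.2% of coding genes. Among those active genes, which are the nearer background, 30.4% had a V5 promoter peak and 59.1% had a V5 peak within 50 kb, compared with 4 of 8 for these genes in both cases. The 8 genes are longer than most, since 7 of them exceed the median coding gene length of 17425 bp, and have 4 to 26 TSSs compared with a median of 3. With 1 window per gene, around its 5' end, the same 4 of 8 genes had a V5 promoter peak, beside 14.3% of all coding genes. The share among active genes was not computed for this window.

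The V5 peaks of the 4 bound promoters ranged from rank 2 to rank 6916 of the 10665 in the list. Crem had the highest score, 19716, which ranked 2 of 10665 peaks and 1 of the 3640 coding genes with a V5 promoter peak. Creb1 followed with 3795 (rank 141, and 45 among those genes). Crebbp was near the middle of the list at 318 (rank 3961), and Atf1 was below the median of the list at 153 (rank 6916), where its rank was 2089 of the 3640 genes. The mouse counterpart of the gene that gives the fusion its DNA-binding domain thus had the weakest peak of the 4.

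The order of the genes differed in the other lists. In the Pol2 list the best promoter scores were 8192 at Crem (rank 53 of 20375), 4120 at Atf1 (rank 360), 3056 at Creb1 (rank 781), 2357 at Ep300 (rank 1339), 1534 at Crtc3 (rank 2839), 1268 at Crtc2 (rank 3655), 1160 at Crebbp (rank 4099) and 709 at Crtc1 (rank 6430). All 8 were above the median of the Pol2 list. In the H3K27ac list Ep300 was highest at 9969 (rank 2 of 27552), followed by Crem at 6415 (rank 64), Creb1 and Crebbp at 5591 each (rank 108), Atf1 at 4451 (rank 274), Crtc3 at 2355 (rank 1577), Crtc2 at 1588 (rank 3074) and Crtc1 at 683 (rank 7189). The 3 transcription factors and the acetyltransferase genes therefore all preceded the 3 Crtc genes in H3K27ac, and all 5 lay within the upper 1% of that list. Ep300 reached its H3K27ac rank without a V5 promoter peak.

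**Figure D1:**
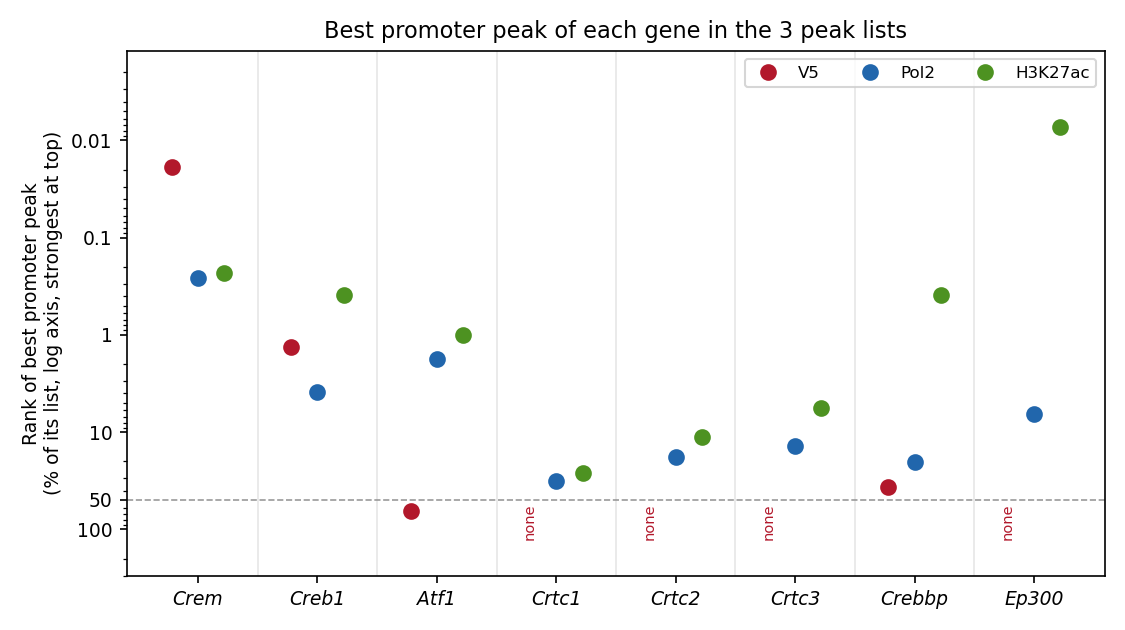
Rank of the best promoter peak of each gene as a percent of the peaks in its own list (log axis, strongest at the top), for V5 (red), Pol2 (blue) and H3K27ac (green); "none" marks genes without a V5 promoter peak and the dashed line is the middle of each list. Crem is in the upper 1% of all 3 lists, Ep300 has the highest H3K27ac rank without V5, and the V5 peak of Atf1 lies far below its other ranks, as does that of Crebbp below its H3K27ac rank.

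Crem (ENSMUSG00000063889.16, chromosome 18, 3266048 to 3337748, minus strand) encodes the cAMP response element modulator and has 39 annotated transcripts from 26 TSSs. It was the only member with more than 1 V5 promoter peak. The stronger peak, of 3950 bp, ran from 702 bp upstream to 3247 bp downstream of the 5' end of the gene and was wider than 99.7% of V5 peaks. It coincided with a Pol2 peak of 3010 bp (score 8192) and an H3K27ac peak of 5280 bp (6415). The weaker V5 peak, of 3030 bp, was also among the widest (wider than 99.3%), and with a score of 5143 it ranked 65, above the best peak of Creb1. It lay 54848 to 57877 bp downstream of the 5' end, in the 3' part of the gene. The 5' end of Crem overlaps Gm6225, a noncoding transcript annotated on the opposite strand, and ChIP-seq does not tell the strand of a peak.

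The 26 TSSs of Crem form 6 clusters when sites up to 1 kb apart are joined. Peaks lay over the TSSs of the most upstream and of the most internal cluster only, and the 4 clusters between them, which start 10157, 12270, 27848 and 38189 bp into the gene, had no peak over a TSS in any list. The upstream cluster starts 11 transcripts, of which 8 are coding, with 124 to 357 codons and a median of 288. The internal cluster, 55979 bp into the gene, starts 7 transcripts, all coding, with 95 to 125 codons and a median of 113. The 4 clusters without peaks have median lengths of 290, 279.5, 274 and 304 codons. The internal cluster had the shortest median, and the shortest protein of the upstream cluster, at 124 codons, fell within its range. At the internal cluster the scores were 5143 for V5, 866 for Pol2 (rank 5456) and 2139 for H3K27ac (rank 1872). In each list the internal peak scored below the upstream one.

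Pol2 was unevenly spread along Crem. Pol2 peaks covered 64.1% of the 15.7 kb from the internal TSSs to the 3' end of the gene and 58.0% of the 15 kb past the 3' end. Of the 55.3 kb between the internal TSSs and the upstream cluster they covered 3.97%. H3K27ac peaks covered 44.5% of the 3' stretch, 7.98% of the stretch between the clusters and none of the 15 kb past the end. The 3' Pol2 peaks differed in width and score, and the median score of the Pol2 list was 246. They comprised a peak of 7650 bp with a score of 866 over the internal cluster, a peak of 7040 bp with a score of 270 over the 3' end, and 2 smaller peaks between them with scores of 54 and 32. Over the whole body Pol2 peaks covered 18.1% of Crem, compared with a median of 3.42% (quartiles 1.27 and 11.3) of the active coding genes. Peaks give no signal between them, so these percentages describe called regions and not the amount of polymerase.

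**Figure D2:**
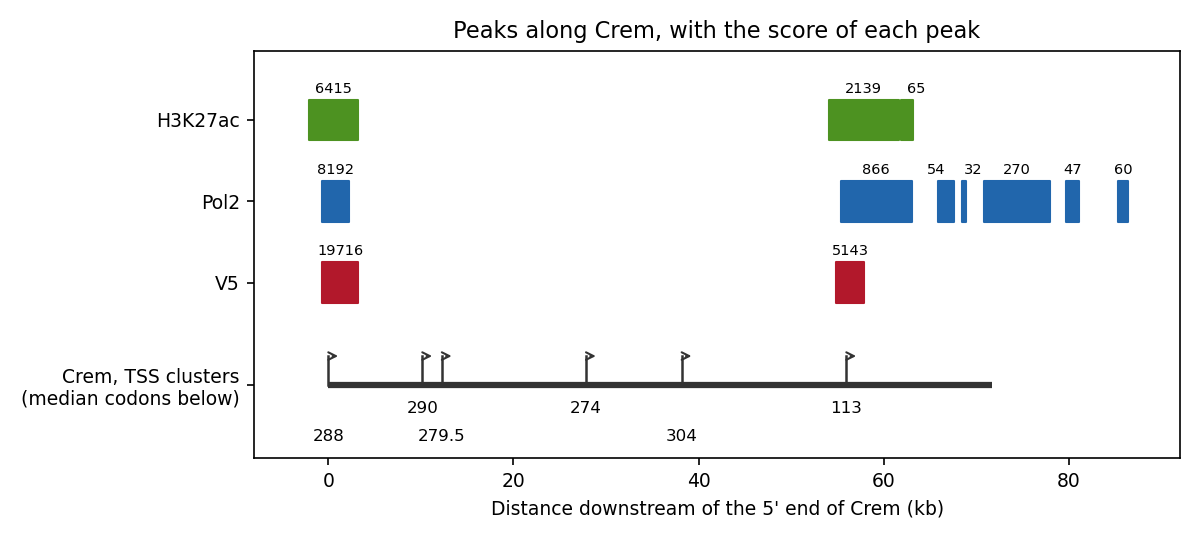
Peaks of the 3 lists along Crem, plotted by distance in kb downstream of its 5' end, with the score above each peak. Arrows on the gene line mark the first TSS of each of the 6 clusters, with the median number of codons of the coding transcripts below. V5 and H3K27ac peaks occur at or next to the first and last clusters only, whereas Pol2 peaks continue from the last cluster past the 3' end.

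Creb1 (ENSMUSG00000025958.14, chromosome 1, 64532645 to 64604548, plus strand) encodes the founding factor of the family. Its V5 promoter peak of 1890 bp ran from 404 bp upstream to 1485 bp downstream of the 5' end and was wider than 97.1% of V5 peaks. It coincided with Pol2 (3450 bp, score 3056) and H3K27ac (4170 bp, score 5591). A second V5 peak of 690 bp lay in an intron, 20866 to 21555 bp into the gene, with a score of 241 (rank 4978). This intronic site was the only V5 peak near any of the 8 genes that overlapped neither Pol2 nor H3K27ac. The third V5 peak near Creb1 (2660 bp, score 769, rank 1658) lay over the promoter of its neighbour Mettl21a, 38693 bp from the nearest Creb1 TSS, where Pol2 scored 3567 and H3K27ac 3636. At the 3' end of Creb1 there were 2 weak Pol2 peaks (63 and 54) and 2 weak H3K27ac peaks (57 and 27) in the untranslated exon.

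Atf1 (ENSMUSG00000023027.13, chromosome 15, 100227819 to 100261244, plus strand) encodes the partner of EWSR1 in the fusion. Its single V5 peak of 810 bp ran from 228 bp upstream to 581 bp downstream of the 5' end, inside a Pol2 peak of 1490 bp (score 4120) and an H3K27ac peak of 2670 bp (score 4451). Both marks ranked within the upper 2% of their lists, whereas the V5 peak ranked at 64.8% of its list. It was therefore the only one of the 4 V5 promoter calls that was lost when the upper 50% of the list was kept. Away from the promoter the gene was nearly bare, with 1 Pol2 peak of score 32 just past the 3' end and 1 H3K27ac peak of score 463 at the Mettl7a1 promoter. The transgene is a human cDNA that holds only the 3' part of ATF1 and lies at another locus, and the Atf1 promoter is not part of it.

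Crebbp (ENSMUSG00000022521.10, chromosome 16, 4081328 to 4213997, minus strand) encodes CBP. Its V5 promoter peak of 740 bp ran from 463 bp upstream to 276 bp downstream of the 5' end. The H3K27ac peak there (5591, rank 108) equalled that of Creb1, whereas the Pol2 peak (1160, rank 4099) was the second lowest among the 8 genes. A stronger V5 peak (2596, rank 300) lay past the 3' end of Crebbp, at the promoter of the neighbouring Trap1, 10325 bp from the nearest annotated Crebbp TSS. That TSS belongs to a noncoding transcript that starts near the 3' end of the gene, and the peak is 135727 to 136486 bp from the 5' end. The best V5 score within 50 kb of a Crebbp TSS therefore belongs to a site at the promoter of another gene.

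Ep300 (ENSMUSG00000055024.12, chromosome 15, 81585351 to 81652077, plus strand) encodes p300, the paralog of CBP. Only 1 of the 27552 H3K27ac peaks had a higher score than the one at its promoter, which spanned 3280 bp from 790 bp upstream to 2489 bp downstream of the 5' end. The Pol2 peak at the promoter scored 2357. No V5 peak lay within 50 kb, and the nearest was 165.851 kb from the closest TSS, with a score of 50 (rank 10180). Among active coding genes the median distance from a TSS to the nearest V5 peak was 29.9 kb (quartiles 0 and 104), and 16.0% were farther away than Ep300. Crebbp and Ep300 thus differed in the V5 list while both ranked high in H3K27ac.

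The 3 Crtc genes, which encode the CREB-regulated transcription coactivators, had Pol2 and H3K27ac promoter peaks and no V5 peak within 50 kb. The nearest V5 peak was 70.582 kb from Crtc1 (score 230, rank 5196), 97.466 kb from Crtc3 (score 175, rank 6374) and 201.263 kb from Crtc2 (score 50, rank 10180). Of the active coding genes, 33.2% were farther from a V5 peak than Crtc1, 26.3% were farther than Crtc3 and 12.8% were farther than Crtc2, so these distances were not extreme.

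Crtc1 (ENSMUSG00000003575.13, chromosome 8, 70382355 to 70439579, minus strand) had the lowest promoter scores of the set in both lists, 709 for Pol2 and 683 for H3K27ac, and no other peak of either list in its body. Crtc2 (ENSMUSG00000027936.18, chromosome 3, 90254163 to 90264125, plus strand) is the shortest of the genes at 9963 bp and likewise had 1 peak of each list in its body. Crtc3 (ENSMUSG00000030527.15, chromosome 7, 80586627 to 80688877, minus strand) had 8 H3K27ac peaks in its body, the most of any member by number. Per 100 kb of body it had 7.82, below Crtc2 at 10, beside a median of 5.76 for active coding genes. One of the 8 peaks in Crtc3 (914, rank 5698) covered a second TSS cluster 59170 bp into the gene, with a Pol2 peak of score 282 at 266 bp from it. The transcripts of that cluster are noncoding. The other 6 H3K27ac peaks away from the main Crtc3 promoter had scores of 27 to 160, below the median of the list.

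**Figure D3:**
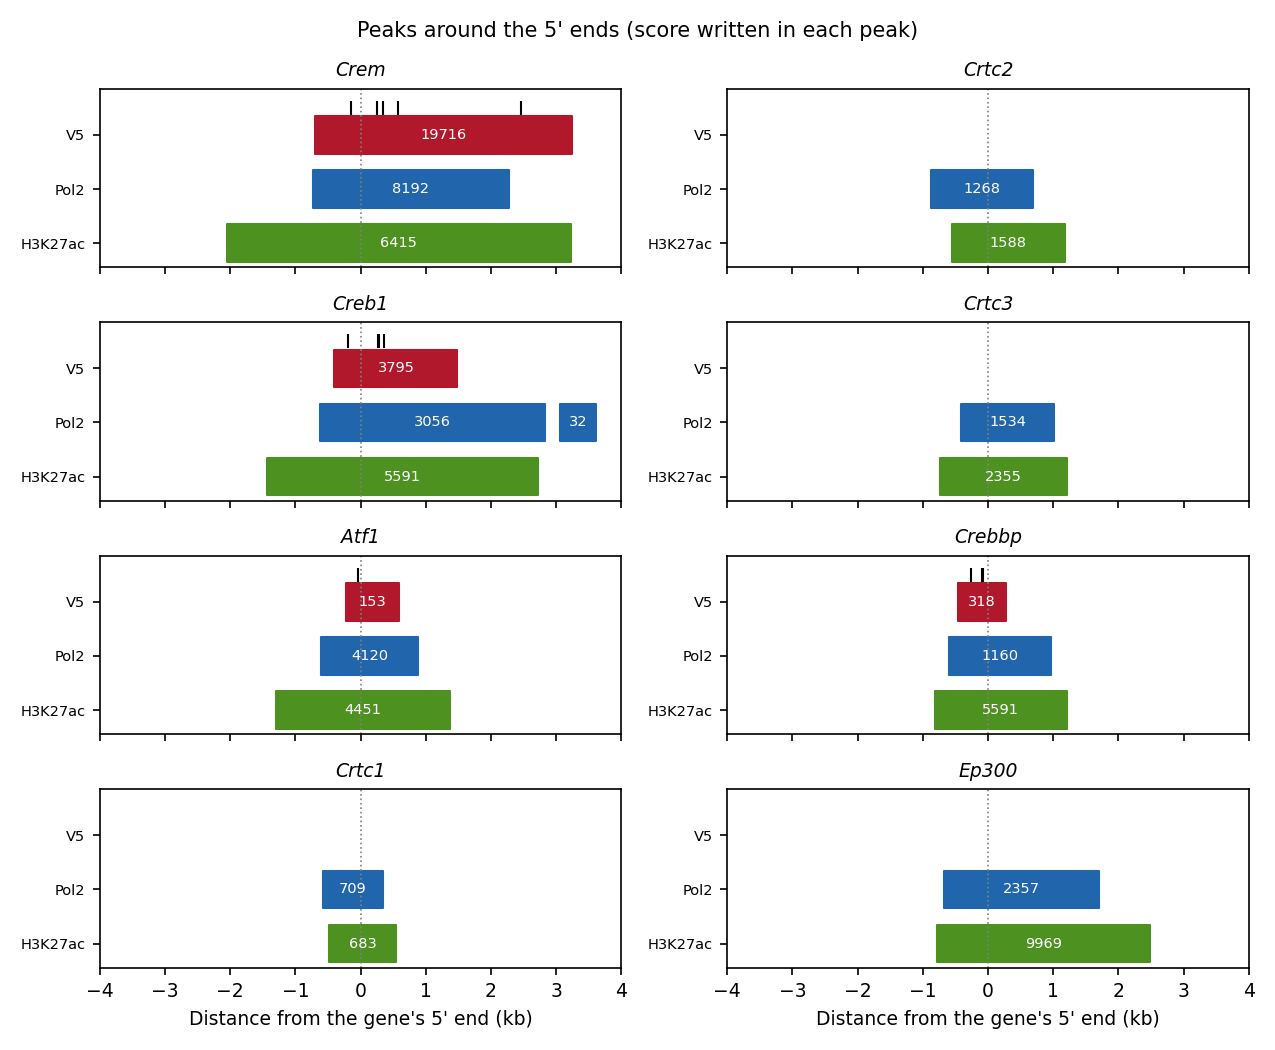
Peaks within 4 kb of the 5' end of each of the 8 genes (distance in kb, positive downstream), with the score written in each peak and black ticks for TGACG cores found in the V5 peaks. V5 peaks are present at Crem, Creb1, Atf1 and Crebbp and lie within or close to the extent of the Pol2 and H3K27ac peaks, which are present at all 8 genes.

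Of the 8 V5 peaks within 50 kb of these genes, 7 overlapped both Pol2 and H3K27ac. The background was 41.6% of all V5 peaks, and 76.0% of the V5 peaks at promoters of any annotated gene. The share at promoters is the nearer background, since 7 of the 8 peaks lay at a promoter, 5 at a member and 2 at Mettl21a and Trap1.

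The number of peaks within 50 kb of a TSS described the surroundings of the genes. For V5, Creb1 had 3 peaks, Crem and Crebbp 2, Atf1 1 and the other 4 genes none, compared with a median of 1 (quartiles 0 and 2) for active coding genes. For Pol2, Crem and Crtc2 had 8 peaks, Crtc1 and Crtc3 6, Creb1 and Crebbp 5, Ep300 4 and Atf1 2, compared with a median of 3 (quartiles 2 and 6). For H3K27ac, Crtc3 had 9, Crtc1 8, Crtc2 7, Creb1 5, Crem 4, Ep300 3, and Atf1 and Crebbp 2, compared with a median of 4 (quartiles 2 and 6). With this window and peaks of all scores, the 3 Crtc genes had the most H3K27ac peaks. They had no V5 peak nearby and the lowest H3K27ac promoter scores of the 8. This order was not recomputed per gene with other windows or score ranges. The window surrounds every TSS, and the TSS clusters reach 89741 bp into Crtc3 and 125402 bp into Crebbp. Of the 9 peaks of Crtc3, 8 were in its own body, and all but those of 914 and 2355 were below the list median of 212. Many of the peaks near the 8 genes lay at neighbouring genes. Of the peaks within 50 kb that lay outside both the promoter and the body of the member, 15 of 23 Pol2 peaks and 16 of 21 H3K27ac peaks were at the promoter of another coding gene, and around Crtc2 these were Rab13, Rps27, Jtb, Slc39a1, Dennd4b and Gatad2b. At Crtc1, by contrast, 3 H3K27ac peaks between 8252 and 28681 bp upstream, with scores of 110 to 630, were at no coding promoter.

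**Figure D4:**
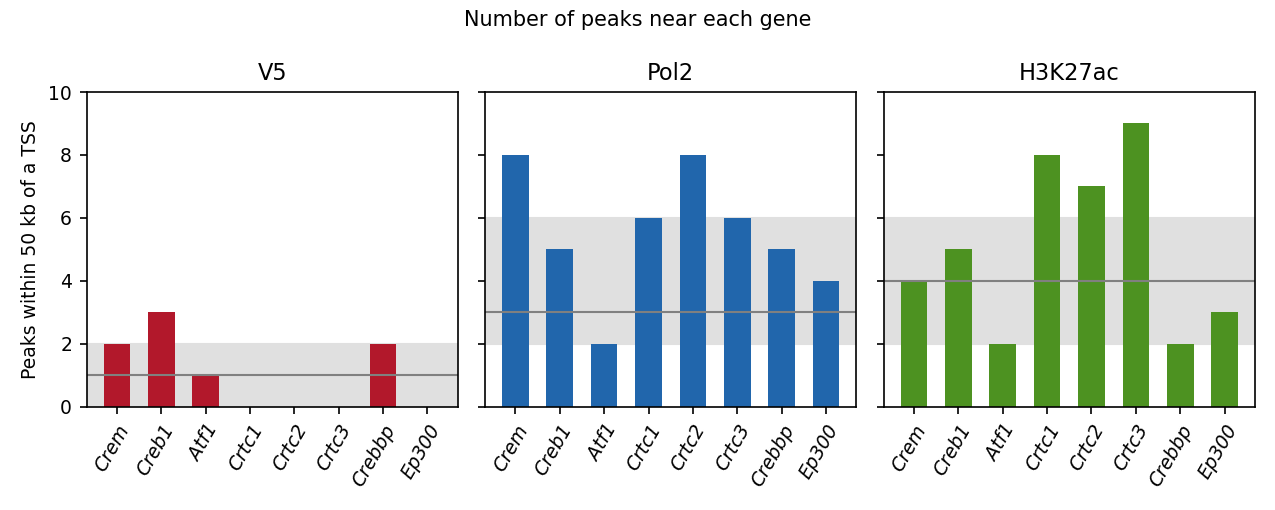
Number of V5, Pol2 and H3K27ac peaks within 50 kb of a TSS of each gene (bars), with the median (grey line) and quartiles (grey band) of the 11443 coding genes that have Pol2 and H3K27ac promoter peaks. V5 counts run from 0 to 3. With this window and peaks of all scores, the highest H3K27ac counts are those of the 3 Crtc genes, and the window is longer where the TSSs of a gene are spread.

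The canonical TGACGTCA was present in 1 of the 5 V5 promoter peaks of the members, the internal peak of Crem, beside 12.9% of all 4330 V5 promoter peaks, and a count of 5 cannot be told from that share. That peak held 3 copies, centred 4, 40 and 56 bp upstream of the nearest internal TSSs, and a TGACATCA centred 45 bp upstream of one of them. None of the 3 lay in the central 200 bp of the peak, and 8.55% of V5 promoter peaks held the element there. Over its width of 3030 bp the peak had 0.99 copies per kb, compared with 0.162 per kb over all V5 promoter peaks. The upstream Crem peak, with the higher score, held no TGACGTCA. It held 5 TGACG cores and 2 variants of the form TGANNTCA, which were TGAGGTCA and TGACCTCA. Variants of this form occurred in 26.9% of V5 promoter peaks and the TGACG core in 77.9%.

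The other bound promoters held TGACG cores without a canonical element. Creb1 had 4, of which 3 lay 18, 39 and 106 bp downstream of the nearest TSS, in a noncoding or untranslated exon, as printed above. Atf1 had 1, centred 48 bp upstream of its first TSS. Crebbp had 3 within 740 bp, and the pair in the 42 bases printed above lay 4 and 21 bp from the middle of the peak. The density at Crebbp was 4.05 per kb, compared with 1.91 per kb over all V5 promoter peaks. The other promoter peaks of the members were near or below that background, at 2.12 (Creb1), 1.98 (internal Crem), 1.27 (upstream Crem) and 1.23 per kb (Atf1). The AP1 element TGAGTCA, found in 16.4% of V5 promoter peaks, was in none of the 5. Both V5 peaks at neighbouring promoters held 1 TGACGTCA. The one at Trap1 was 36 bp from the middle of its peak, and the one at Mettl21a was 535 bp from the middle of a wider peak. Each TGACGTCA contains the core on both strands and adds 2 to its count, and all motifs were searched on both strands.

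The same letters were not particular to the bound genes. In the best Pol2 promoter peaks of the genes without V5, TGACG occurred once at Crtc1, in 2 copies at Crtc2 and at Ep300, and not at Crtc3, and TGACGTCA occurred in none of the 8 Pol2 peaks. RefSeq promoters (GRCm38.p6, 250 bases before to 50 after the start) were matched by symbol for 6 of the 8 genes, all but Crem and Crtc2. None of the 6 held TGACGTCA (1.79% of 32851 RefSeq promoters), 1 of the 6 held TGACG (Atf1; 20.8% of all), 1 held another TGANNTCA (Ep300; 12.5%) and none held TGAGTCA (5.2%). A match of letters is a description and does not show a bound site.

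The enzymes and partners around the CREB proteins were described with a list of 56 further genes. V5 promoter peaks were present at 24 of them (42.9%), Pol2 at 52 and H3K27ac at 53. Of the 52 with both marks, 24 (46.2%) had a V5 promoter peak, beside 30.4% of active coding genes. With the upper 50% of the V5 list, 12 of the 56 genes had one, beside 7.3% of all coding genes. That background includes genes without Pol2 and H3K27ac promoter peaks. The share among active coding genes, the nearer background, was not computed for this setting. Among the genes that control the CRTC proteins, V5 was at 7 of 8 (the kinase genes Stk11, Sik1, Sik2 and Sik3 and the calcineurin genes Ppp3ca, Ppp3cb and Ppp3r1) with Ppp3cc as the exception. Of these 7 promoters, 4 had V5 scores of 67 to 163, below the median of the list, and 3 of the 8 genes (Sik1, Sik2 and Sik3) had a peak in the upper 50%. The Crtc genes themselves had none. The phosphatases of CREB had V5 at 3 of 4, the kinases of CREB at 5 of 13, other coactivators and acetyltransferases at 5 of 17, and related bZIP genes at 2 of 11.

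Within this list 5 genes had a V5 promoter peak in the upper 25% of the V5 list. Ncoa3, a nuclear receptor coactivator, had 6030 (rank 53). Sik1, a CREB target gene that encodes a kinase of the CRTC proteins, had 2059 (rank 424), with 5699 for Pol2 and 4651 for H3K27ac. Sik3 had 1000 (rank 1222), Prkacb, a catalytic subunit of protein kinase A, had 739 (rank 1738) and Kat5, an acetyltransferase, had 579 (rank 2232). All 5 were below the upstream Crem peak, and Ncoa3 alone was above the internal Crem peak and above Creb1. The other 19 V5 scores were at most 376.

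The labelled tissue was checked against marker genes at promoters. Of 7 melanocytic and neural crest markers, Mitf and Pmel had Pol2 and H3K27ac, S100b had H3K27ac, Dct had V5 only, and Sox10, Mlana and Tyr had no promoter peak in any list. H3K27ac was at the promoters of 4 of 4 leukocyte, 3 of 3 endothelial, 3 of 3 fibroblast, 1 of 2 keratinocyte and 0 of 6 skeletal muscle markers, and Pol2 at 1 of 4, 1 of 3, 1 of 3, 0 of 2 and 1 of 6. V5 was at none of these 18 promoters. Over all coding genes the shares were 58.6% for H3K27ac and 53.5% for Pol2. Below the H3K27ac median of 212 were Ptprc (172), Dcn (101), Pdgfra (65), Cdh5 (52), Krt14 (41) and Cd3e (34). Above it were Cd68 (1554), Col1a1 (1024), Pecam1 (346), Csf1r (334) and Kdr (266). Pmel had 822, Mitf 372 and S100b 57. The part of these cell types in the Pol2 and H3K27ac peaks of the 8 genes was not tested.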

How the data were processed

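ChIP-seq peaks of mouse tumours were used as deposited. The labels give 4 samples per antibody (V5, Pol2, H3K27ac) and 4 inputs. The published methods count more V5 and RNAPOL2 libraries than the labels, and the sources do not say which of them went into the 1 list per antibody. Per the methods and the submitters' processing notes, reads were aligned with BWA 0.7.10-r789 to mm10, peaks were called with MACS2 2.2.6 against input (broad for H3K27ac), and denylisted regions were removed. The score column was written by the authors as whole numbers of unstated scale. The methods describe averaging of replicates for the coverage tracks, and how replicates entered the peak lists is not given in the sources used here.

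Peaks were intersected (at least 1 bp) with GENCODE vM21 genes on chromosomes 1 to 19, X and Y, using Python 3.11.15 and numpy 2.4.6. Windows were 3 kb (promoter) and 50 kb around every TSS, and TSSs within 1 kb were joined into clusters. Active genes had Pol2 and H3K27ac promoter peaks. Motifs were searched in GRCm38 sequence. The overlap and motif functions were tested on simulated intervals and sequences. No test across tumours could be made from 1 list per antibody. Alternatives changed the windows, the TSS set, the overlap rule, the score range and the part of the peak searched.

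All 8 genes are named throughout. From the list of 56 genes, those in the upper 25% of the V5 list are named with values, 1 group of the list is not reported here on its own, and likeness to Crem is given for the 5 nearest genes. The genes, lists and rules were chosen with earlier results of these data known.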

Additional observations from a re-analysis of the deposited data

How the results depend on the processing

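Of the 51 recomputed counts over the 8 genes and the list of 56, 40 stayed within 1.5 times the reported count and 11 moved. V5 promoter peaks stayed at Crem, Creb1, Atf1 and Crebbp under 5 alternatives for the window, the TSSs and the overlap (14.3% to 17.9% of coding genes). Restricting the lists to the upper 50% of scores removed Atf1 and left 3 genes (7.3%). A window of 100 kb raised the V5 peaks from 8 to 14 and brought in Crtc1 and Crtc3. The 44 Pol2 peaks within 50 kb became 24 with 20 kb, 67 with 100 kb and 24 with the upper 50% of scores, and the 40 H3K27ac peaks became 22, 65 and 25. The upper 50% also lowered body peaks from 21 to 11 for Pol2 and from 19 to 10 for H3K27ac, and V5 in the list of 56 from 24 to 12. The V5 promoter peaks with TGACGTCA went from 1 to 0 in the central 200 bp. A wider or narrower window, a shorter list or a smaller part of the peak shifts these counts by construction. Of 119 best scores recomputed, 118 were unchanged, and the H3K27ac score of Crtc2 rose from 1588 to 2794 with 5 kb, where the window takes in the Slc39a1 promoter. A best score is a maximum, so keeping the upper 50% of scores can only leave it or remove it. The V5 score of Atf1, which that setting removed, is not among the 119. These unchanged scores are therefore largely fixed by construction. No paired analysis was possible because each antibody has 1 list without values per sample, and for the same reason no replicate could be left out. The study states only a rough target depth and the lists hold no reads, so the absence of a peak means only that none was listed.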

Other observations

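The coding genes whose promoter ranks were most like those of Crem were sought among the 3484 with promoter peaks in all 3 lists, by the distance between rank percentiles. The 5 nearest were Adarb1 at 1.01 percentile points, Litaf at 2.05, Nfil3 at 2.48, Morf4l1 at 3.01 and Babam2 at 3.43. Adarb1 had scores of 6371 for V5 (rank 42), 5398 for Pol2 (rank 163) and 4451 for H3K27ac (rank 274). Its V5 score was above that of the internal Crem peak and well below that of the upstream one. Nfil3, a bZIP repressor, had 2767 for V5 (rank 265), 6551 for Pol2 (rank 98) and 5958 for H3K27ac (rank 84). The points share the 3 lists, and the distance is a description over 3 values per gene.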
